A study of Homo sapiens with 6 samples.

Results

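The glutamate and GABA-A receptor genes were followed through an assay for transposase-accessible chromatin (ATAC-seq) of A375 cells, in which empty vector cells were compared with HMGB2OE cells. The genes were chosen by symbol: 45 protein-coding genes of GENCODE version 44, out of 20046, that encode the subunits of the ionotropic glutamate receptors (GRIA, GRIK, GRIN and GRID), the metabotropic glutamate receptors (GRM) and the GABA-A receptors (GABR). A peak was given to a gene if its centre lay in the gene body, or if it was intergenic and that gene had the nearest protein-coding start site. By this rule 572 of the 152800 peaks of the study belonged to the receptor genes, 400 of them in gene bodies and 172 intergenic, and 569 had enough reads to be tested. GRM6, the receptor of retinal ON bipolar cells, had no peak, and 5 peaks lay in regions shared by a pair of the genes.

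A375 is a human melanoma cell line. HMGB2 is a DNA-bending protein of the high mobility group, and the HMGB2OE cells were a stable line made by lentiviral transduction with an HMGB2 open reading frame and drug selection; the control line carried the empty vector. Each condition had 3 libraries, numbered by the labels and written here as EV1 to EV3 and OE1 to OE3. The study describes them as technical replicates, so every p-value below measures the spread between libraries and not between independently made lines. Tn5 transposase cuts open DNA, and the count of reads in a peak is taken as its accessibility. In bulk libraries, a site that is open in fewer cells and a site that is less open in every cell cannot be told apart.

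Glutamate is the main excitatory transmitter of the brain and GABA the main inhibitory one. AMPA, kainate and NMDA receptors are cation channels gated by glutamate, metabotropic receptors signal through G proteins, and GABA-A receptors are chloride channels built of 5 subunits drawn from several families. Outside neurons, GRIN2A and GRM3 are recurrently mutated in human melanoma. The subunit genes are long, and many of the GABA-A genes sit side by side in clusters on chromosomes 4, 5, 15 and X.

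Libraries held 26910189 to 45645294 counts in peaks. Values are normalized counts, that is, raw counts scaled to a common library size, and differences are log2 fold changes of HMGB2OE over empty vector with their standard errors (SE) from the quasi-likelihood test of edgeR. A peak was called when its Benjamini-Hochberg adjusted p over all 150117 tested peaks was under 0.05 and it differed by at least 1.5-fold. At HMGB2 itself, the coding-exon peak at chr4:173332680-173333181 went from 32.0 ± 15.7 to 98.4 ± 5.31 (SD, n = 3 libraries each), a place where reads from the introduced open reading frame and from the gene itself cannot be told apart. The other coding-exon peak, starting at 173331939, rose as well (1.16 ± 0.27, edgeR adjusted p = 0.0082), with the same limit. The intergenic peaks starting at 173334285 and 173346039 stayed level (-0.01 ± 0.08 and -0.03 ± 0.20, edgeR adjusted p = 0.96 for both). Of 7 melanocyte lineage markers, 5 had a promoter peak, SOX10, MITF and PMEL among them, and TYR and DCT had none. All 10 markers of neurons, epithelium, keratinocytes, blood cells and endothelium also had promoter peaks, so the presence of a peak did not separate the lineages, and no marker promoter differed between the groups past the threshold (edgeR).

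Accessibility around the receptor genes went both ways, with more peaks higher than lower in HMGB2OE cells. Of the 569 tested peaks, 23 were called higher, or 4.04% against 1.87% of all tested peaks, and 11 were called lower, or 1.93% against 1.44% of all. With library sizes as the only scaling the split was 28 higher and 7 lower. With the limit eased to a 25% difference, 35 peaks were higher and 18 lower, where 3.36% and 2.85% of all peaks were called. Without a fold limit 35 were higher and 19 lower, against backgrounds of 3.44% and 3.03%. All 3 HMGB2OE libraries lay above all 3 empty vector libraries at 96 receptor peaks (16.9%, against 12.6% of all peaks) and below them at 58 (10.2%, against 12.5%). The median log2 fold change was 0.083 over the receptor peaks and -0.0049 over all tested peaks, and 60.3% of the receptor peaks were above 0 against 49.2% of all. Most of them moved little: 5% lay under -0.53 and 5% over 0.64. The 34 called peaks belonged to 19 genes, of which 11 had only higher peaks, 7 only lower peaks, and GRID1 both.

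**Figure D1:**
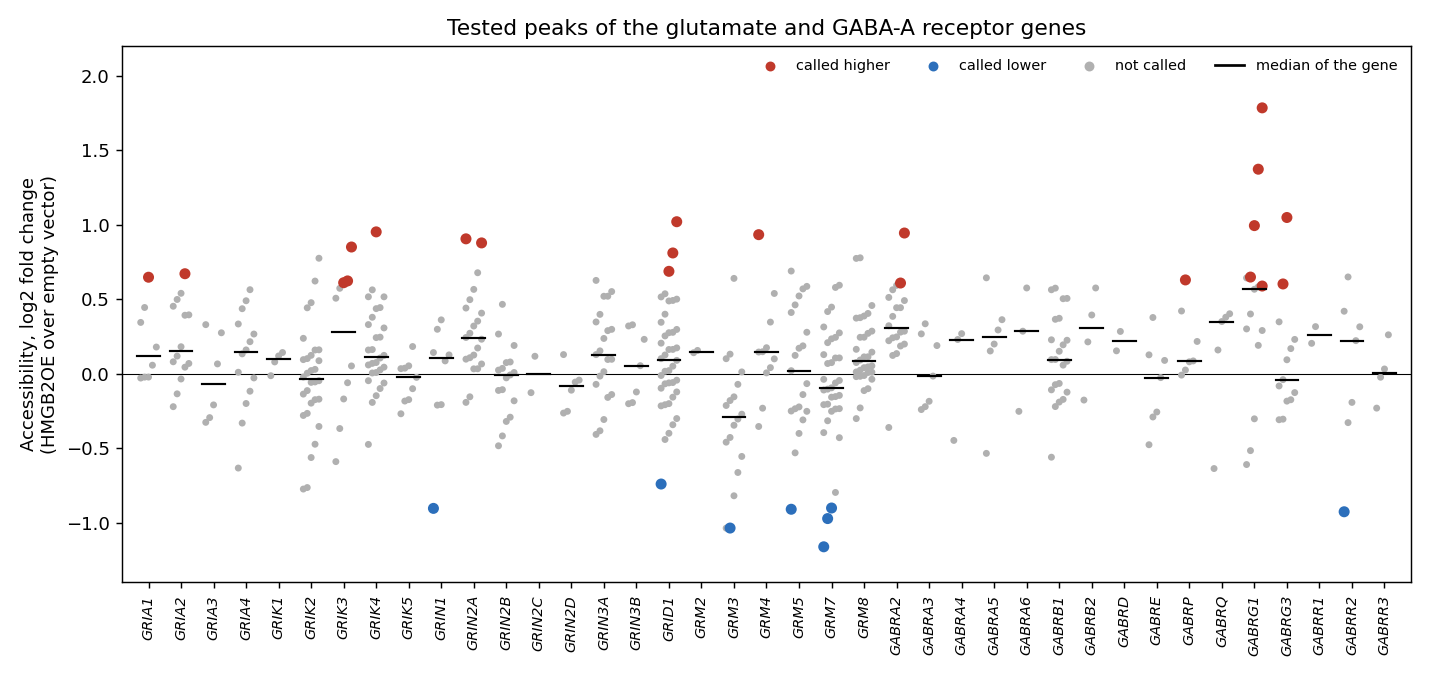
Log2 fold change of the tested peaks of 39 receptor genes (vertical axis, HMGB2OE over empty vector), grouped by gene along the horizontal axis; each point is a peak, the bar is the median of the gene, and a peak shared by a pair of genes is drawn once for each gene that lists it. GABRG1 holds the highest points and a median of 0.57, GRM3 has a median of -0.29 with 4 of 18 peaks above 0, and the 3 called peaks of GRM7 are all lower.

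The families differed in which way their called peaks went. The 152 tested peaks of the GABA-A genes held 11 higher (7.24%) and 2 lower (1.32%) calls, with a median log2 fold change of 0.19. The 287 peaks of the ionotropic glutamate receptor genes held 11 higher (3.83%) and 4 lower (1.39%) calls, with a median of 0.065. The 130 peaks of the metabotropic receptor genes held 1 higher (0.769%) and 5 lower (3.85%) calls, with a median of 0.022. Among smaller classes, the gamma subunits of the GABA-A receptor had 8 of 40 peaks called higher and none lower. Of those 8 calls, 5 belonged to GABRG1. That gene lies in a cluster on chromosome 4 whose 4 genes held 60 of the 152 GABA-A peaks and 7 of the 11 higher calls. Peaks of other genes on the lower-coordinate side of that cluster also had a median above 0, given below. The group II metabotropic receptors, GRM2 and GRM3, had a median of -0.24 over 20 peaks. These are counts over peaks, which are not replicates, and the difference between families was not tested.

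Sequences of 5 called peaks are shown because each kept its call without any 1 library and together they span the kinds of site found: intergenic, close to a start, and intronic. Each is a stretch of 200 bases of the hg38 plus strand, positions counted from 1, and capitals mark the word TGACTCA or its reverse complement TGAGTCA, the binding word of AP-1, which joins FOS and JUN proteins. Stretches with the word were placed around it and the others around the peak centre. The middle position of the word is therefore set by this choice. The first lies downstream of GABRG1 at chr4:45554672-45554871, the next just upstream of the GABRG1 start at chr4:46124878-46125077, the third in an intron of GRIN2A at chr16:9797508-9797707, the fourth far upstream of GRM7 at chr3:6179879-6180078, and the last in an intron of GRIN1 at chr9:137150935-137151134.
GABRG1 downstream peak: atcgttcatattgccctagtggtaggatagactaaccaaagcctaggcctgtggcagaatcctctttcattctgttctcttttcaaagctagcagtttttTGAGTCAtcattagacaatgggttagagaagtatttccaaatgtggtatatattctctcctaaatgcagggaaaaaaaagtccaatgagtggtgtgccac
GABRG1 start peak: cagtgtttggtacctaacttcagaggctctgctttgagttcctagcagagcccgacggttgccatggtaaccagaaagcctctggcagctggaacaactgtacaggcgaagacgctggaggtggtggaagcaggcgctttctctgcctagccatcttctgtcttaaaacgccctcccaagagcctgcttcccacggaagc
GRIN2A intron peak: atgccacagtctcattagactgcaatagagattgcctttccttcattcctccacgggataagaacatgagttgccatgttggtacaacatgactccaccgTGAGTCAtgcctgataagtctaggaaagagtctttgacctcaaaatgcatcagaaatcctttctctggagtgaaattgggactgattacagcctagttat
GRM7 upstream peak: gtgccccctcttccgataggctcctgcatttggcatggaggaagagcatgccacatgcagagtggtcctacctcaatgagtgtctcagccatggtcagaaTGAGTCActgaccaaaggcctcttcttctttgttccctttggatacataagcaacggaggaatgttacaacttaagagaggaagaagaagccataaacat
GRIN1 intron peak: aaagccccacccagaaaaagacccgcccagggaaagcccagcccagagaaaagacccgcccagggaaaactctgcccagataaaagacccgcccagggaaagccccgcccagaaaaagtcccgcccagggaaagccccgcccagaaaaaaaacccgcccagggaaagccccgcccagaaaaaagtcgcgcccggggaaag
The GRIN1 sequence repeats a short unit: the word CCGCCCAG occurs 16 times in 501 bases of that peak. How reads that fit several places were treated in the alignment is not given in the sources used here, and its part in the counts of that peak was not tested.

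Among the GABA-A genes, GABRG1 had the largest rises. It encodes the gamma-1 subunit and lies with GABRA2, GABRA4 and GABRB1 in a cluster on chromosome 4. Its downstream peak at chr4:45554462-45554963, the first sequence above, is intergenic and lies 569342 bases from the GABRG1 start, beyond the far end of the gene. It belongs to GABRG1 only as the nearest start site. The peak read 12.5, 6.88 and 23.4 normalized counts in EV1 to EV3 and 45.9, 48.4 and 49.5 in OE1 to OE3. The groups did not overlap, and the log2 fold change was 1.78 ± 0.37 (SE; edgeR adjusted p = 0.0031). Coordinates of peaks are as the study's table gives them, on hg38, and the peak lengths given there count both ends. A second downstream peak, at chr4:45662962-45663463, went from 20.8, 34.4 and 22.2 to 83.3, 70.1 and 51.8, by 1.37 ± 0.27 (adjusted p = 0.0022). This peak is also intergenic, 460842 bases from the GABRG1 start. The peak 923 bases upstream of the GABRG1 start, at chr4:46124727-46125228, had 38.9, 47.3 and 43.3 in empty vector cells and 76.5, 85.1 and 100.2 in HMGB2OE cells. Every HMGB2OE library was above every empty vector library there, with a log2 fold change of 0.99 ± 0.21 (adjusted p = 0.0045). These 3 calls held when each library was left out in turn, with log2 fold changes of 1.38 to 2.36, 1.21 to 1.67 and 0.89 to 1.08. The neighbouring peak 121 bases from the start, the strongest promoter peak of GABRG1, read 67.1 ± 8.29 and 88.0 ± 10.02 (SD, n = 3 libraries each), a log2 fold change of 0.40 that did not pass the threshold (adjusted p = 0.23). Smaller rises were called at the intergenic peaks starting at 45946692 (0.65 ± 0.20, adjusted p = 0.044) and 46211270 (0.59 ± 0.18, adjusted p = 0.0497). The former lost its call when any library other than OE3 was left out (adjusted p up to 0.23) and the latter when any library was (up to 0.22).

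GABRA2, which encodes the alpha-2 subunit, had a called peak at a start site. The peak at chr4:46389815-46390316 is centred 26 bases upstream of a transcript start, covers untranslated exon sequence and is the strongest promoter peak of the gene. That start is internal, and the peak lies 85165 bases into the gene. It read 151, 151 and 144 in EV1 to EV3 and 221, 223 and 238 in OE1 to OE3, with no overlap and a small spread in both groups. Its log2 fold change was 0.61 ± 0.13 (adjusted p = 0.0034), close to the fold limit. Without EV3, without OE3 or with the median of its 10 Mb window subtracted it fell under that limit, to a log2 fold change of 0.58 at the lowest over the libraries left out and 0.55 with the regional median subtracted, with an adjusted p of at most 0.016. An intergenic peak upstream of GABRA2, at chr4:46579627-46580128, went from 38.9, 36.1 and 33.9 to 85.9, 74.2 and 47.3 (0.94 ± 0.25, adjusted p = 0.021). Leaving out EV2, EV3, OE1 or OE2 took that call away, with adjusted p-values up to 0.17. GABRA4 and GABRB1, the other genes of the cluster, had no called peak, and their medians were 0.23 over 3 peaks and 0.095 over 22.

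The genes around the cluster were measured as well, a region chosen after its values were seen. Between 45 and 47 Mb of chromosome 4, the 39 receptor peaks had a median log2 fold change of 0.32 with 7 called higher and none lower, and the 12 peaks of other genes there had a median of 0.23 with 1 called higher. Between 42 and 45 Mb, where no receptor gene lies, 70 peaks of other genes had a median of 0.23 with 8 called higher and none lower. From 47 to 50 Mb the medians were 0.095 over 21 receptor peaks, all of GABRB1, and -0.068 over 118 others. The higher values ran past the receptor genes on the lower-coordinate side. Subtracting the median of each 10 Mb window left 18 receptor peaks called higher and 8 lower, and GABRG1 kept its 3 largest rises as calls. The window around the cluster also held the lower values from 47 to 50 Mb. It moved the GABRA2 start-site peak only from 0.61 to 0.55. The subtraction therefore did not take out the whole rise between 42 and 47 Mb. The 4 genes of the cluster gave 7 of the 23 higher calls, and the other receptor genes had 16 of 509 peaks higher (3.14%). The part of the wider region in the receptor result was not tested. Each condition was a single stable line, so a difference between the lines over this region cannot be told apart from an effect of HMGB2. No copy-number data for the lines were at hand.

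**Figure D2:**
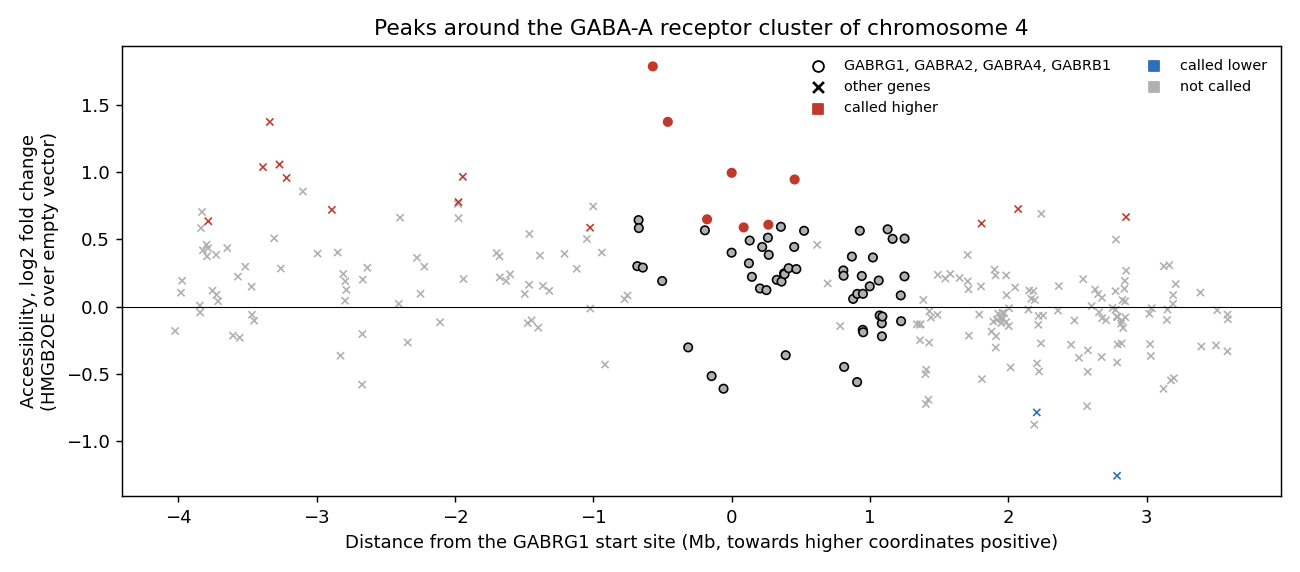
Log2 fold change of each tested peak (vertical axis) by its distance in Mb from the GABRG1 start (horizontal axis, positive towards higher coordinates); circles are peaks of GABRG1, GABRA2, GABRA4 and GABRB1 and crosses are peaks of other genes. Called higher peaks lie on both kinds of symbol to the left of the start, and the crosses beyond 1 Mb to the right centre slightly under 0.

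The remaining GABA-A genes moved at single peaks. GABRG3, the gamma-3 subunit gene of the chromosome 15 cluster, had an intronic peak at chr15:27058030-27058531 that read 38.9, 48.2 and 70.2 in empty vector cells and 103, 103 and 123 in HMGB2OE cells. All HMGB2OE libraries were above all others, and the call stood without each library in turn (1.05 ± 0.21, adjusted p = 0.0020, range 0.90 to 1.30). Its other called peak, starting at 27485972, rose by less (0.60 ± 0.13, adjusted p = 0.0058), and without EV1, EV3 or OE2 it was not called (log2 fold change down to 0.51, adjusted p up to 0.054). GABRP, the pi subunit gene, had a peak 10950 bases upstream of its start that went from 149.8 ± 9.11 to 232 ± 30.1 (0.63 ± 0.13, adjusted p = 0.0039). That call was lost without OE3 through the fold limit (log2 fold change 0.55).

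A fall in the GABA-A genes lay near an alternative start. GABRR2, a rho subunit gene known from retina, had a promoter peak at an internal start, chr6:89268712-89269213, that read 73.7, 77.4 and 99.5 and then 45.1, 41.7 and 45.03 (-0.93 ± 0.22, adjusted p = 0.0085). Only leaving out EV3 ended that call (adjusted p = 0.058).

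**Figure D3:**
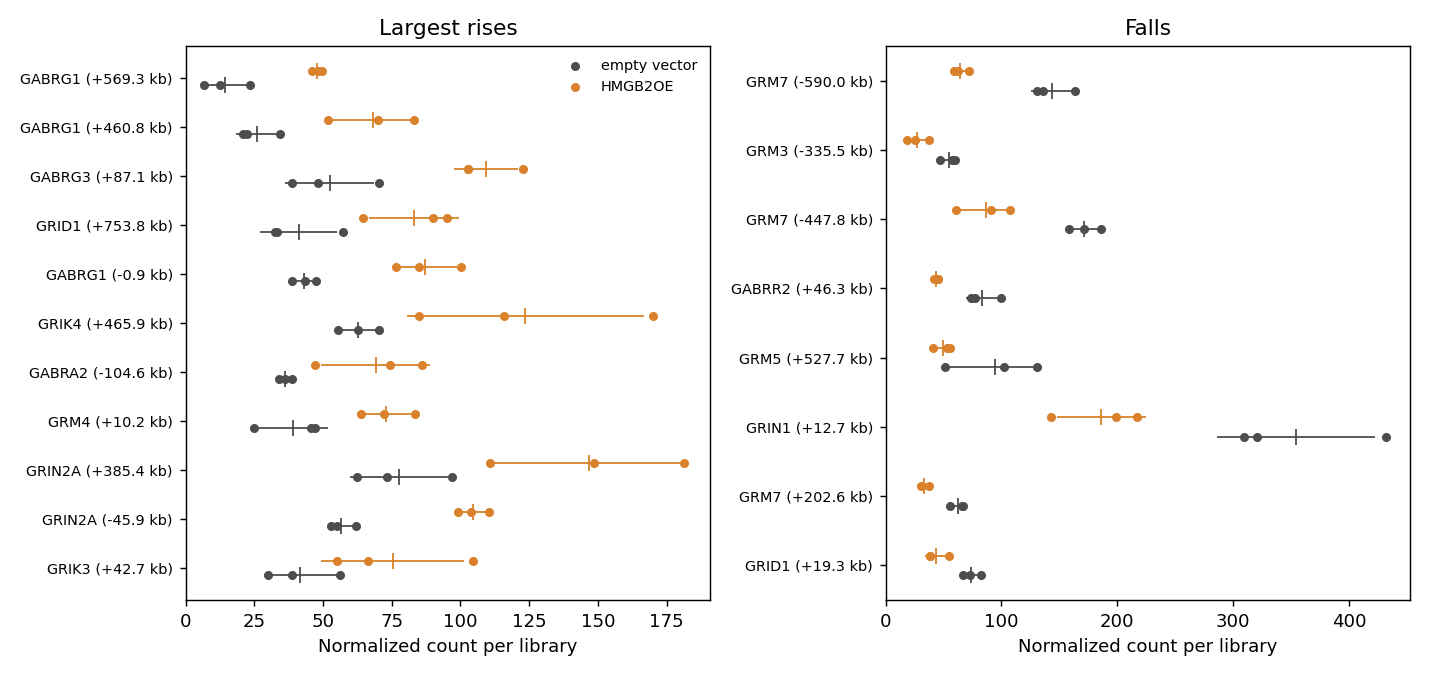
Normalized counts per library (horizontal axis, from 0) of 11 called peaks with the largest rises and of 8 called lower, 1 row per peak, named by gene and by the distance of the peak from the gene's first start in kb (positive is downstream). Points are libraries, the vertical tick is the mean and the line is the SD (n = 3); the groups stay apart in every row except those of GRIK3 among the rises and GRM5 among the falls.

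Among AMPA receptor genes, which encode the fast excitatory channels, 2 of 42 peaks were called higher (4.76%) and none lower. Over all tested peaks the shares were 1.87% and 1.44%. The GRIA1 peak, 341082 bases upstream of the gene, read 77.8, 79.2 and 77.2 in empty vector cells and 114, 118 and 137 in HMGB2OE cells (0.65 ± 0.17, adjusted p = 0.017). It was not called without EV2 or without OE3 (adjusted p up to 0.079). The GRIA2 peak starting at 157655233, beyond the end of the gene, read 56.2 ± 3.11 and 90.1 ± 12.4 (0.67 ± 0.20, adjusted p = 0.039), and leaving out any library ended its call (adjusted p up to 0.16). Kainate receptor genes had 4 of 81 peaks called higher (4.94%) and none lower. In GRIK4, an intronic peak at chr11:120977441-120977942 read 55.6, 62.8 and 70.2 and then 85.0, 116 and 170.0. The HMGB2OE libraries all lay above the others but spread widely, and without OE3 the call was lost (0.95 ± 0.21, adjusted p = 0.0055, and 0.070 without OE3). GRIK3 had 3 called peaks. The largest, at chr1:36991525-36992026, read 38.9, 30.1 and 56.2 against 66.3, 55.0 and 105, so the groups overlapped (0.85 ± 0.26, adjusted p = 0.049). Without EV1, EV2, OE1 or OE3 it was not called (adjusted p up to 0.31). The other GRIK3 peaks, starting at 36831314 and 37123278, rose by 0.61 ± 0.18 and 0.62 ± 0.15 (adjusted p = 0.041 and 0.013). The former was lost without EV1, EV2, OE2 or OE3 (adjusted p up to 0.23), and the latter without EV1, EV2 or OE3 (adjusted p up to 0.063). GRIK2, with 30 tested peaks, had none called and a median log2 fold change of -0.035.

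NMDA receptor genes encode channels that need glutamate and a co-agonist, with GRIN1 as the subunit common to all of them. GRIN2A, for the GluN2A subunit, rose at a pair of peaks. The intronic one at chr16:9797312-9797813, with the AP-1 word shown above, read 62.5, 73.1 and 97.1 in EV1 to EV3 and 149, 111 and 181 in OE1 to OE3 (0.91 ± 0.19, adjusted p = 0.0032). The upstream one at chr16:10228574-10229075 read 52.8, 55.1 and 62.0 and then 104, 99.3 and 110.3 (0.88 ± 0.19, adjusted p = 0.0041). Neither overlapped between groups, and both calls held without each library (0.74 to 1.09 and 0.84 to 0.94). Of the 21 GRIN2A peaks, 19 were above 0, with a median of 0.24. GRIN1 went the other way at the repeat-bearing peak within 3 kb of a transcript start, at chr9:137150784-137151285, which read 432, 321 and 309 in the empty vector libraries and 199, 217 and 143 in the HMGB2OE libraries. This was the strongest of the lower peaks by normalized count (-0.90 ± 0.14, adjusted p = 0.00019), and no left-out library ended its call (-1.03 to -0.74). GRIN2B had 17 tested peaks and none called.

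The delta receptor gene GRID1, whose protein acts at synapses without known gating by glutamate, is very long and had 40 tested peaks. GRID1 had 3 peaks called higher and 1 lower. Its largest rise was at an internal start, chr10:85612721-85613222, with 33.4, 32.7 and 57.3 against 64.6, 95.1 and 90.1 (1.02 ± 0.24, adjusted p = 0.0096), and without EV2 or OE2 it was not called (adjusted p up to 0.067). The intronic peaks starting at 85986694 and 86078967 rose from 126 ± 25.1 to 218 ± 33.5 and from 107 ± 12.4 to 172 ± 28.4. Of these the former kept its call without each library (0.81 ± 0.15, adjusted p = 0.0014) and the latter lost it without EV2 or OE3 (0.69 ± 0.16, adjusted p = 0.0068, up to 0.052). The lower GRID1 peak, at chr10:86347200-86347701, read 82.0, 67.1 and 72.6 and then 54.4, 38.4 and 38.3 (-0.74 ± 0.23, adjusted p = 0.048), and it was called with all libraries and without OE1 but not without any of the others (adjusted p up to 0.16).

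Most called falls of the metabotropic genes were at peaks given to GRM7, a presynaptic receptor gene of group III. Its upstream peak at chr3:6179715-6180216, whose sequence is shown above, lies 590036 bases before the start and read 131, 136 and 164 in empty vector cells and 58.7, 62.6 and 72.0 in HMGB2OE cells. This was the largest fall of any receptor peak (-1.16 ± 0.17, adjusted p = 0.00010). A second upstream peak, at chr3:6321914-6322415, read 171, 186 and 158 and then 91.0, 108 and 60.8 (-0.97 ± 0.17, adjusted p = 0.00061). Neither pair of groups overlapped, and both calls held without each library (-1.24 to -1.06 and -1.16 to -0.79). Both peaks are intergenic and belong to GRM7 only as the nearest start site. An intronic peak, at chr3:6972303-6972804, read 66.7, 55.9 and 65.5 against 37.4, 30.9 and 31.5 (-0.90 ± 0.25, adjusted p = 0.027), and only EV2 could be left out without losing that call (adjusted p up to 0.095 for the others). Over the 35 tested GRM7 peaks, 14 were above 0 and the median was -0.095.

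The other metabotropic genes had 1 call each or none. GRM3, a group II receptor gene, had an upstream peak at chr7:86308122-86308623 that read 59.8, 47.3 and 57.3 and then 18.7, 25.0 and 37.2 (-1.04 ± 0.30, adjusted p = 0.031). The call was lost without EV1, EV3, OE1 or OE2 (up to 0.16). GRM5, a group I receptor gene, had an intronic peak at chr11:88538068-88538569 with 131, 102 and 51.5 against 55.3, 53.4 and 40.5. Its groups overlapped through EV3 (-0.91 ± 0.25, adjusted p = 0.023), and leaving out any library but EV3 ended the call (up to 0.16). GRM4, of group III, had the only called rise of the family, at an internal start at chr6:34145165-34145666, with 47.3, 25.0 and 45.6 against 63.8, 83.4 and 72.0 (0.93 ± 0.25, adjusted p = 0.022). Without EV2, OE2 or OE3 that peak was not called (up to 0.16). GRM2 and GRM8 had no called peak, and the 32 tested peaks of GRM8 had a median of 0.083.

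Promoters of the receptor genes were open but weak in these cells. A promoter peak, one within 3 kb of a transcript start, was present for 36 of the 45 genes (80.0%) and for 77.9% of all protein-coding genes. The strongest promoter peak of a receptor gene had a median of 122.6 normalized counts in empty vector cells, against 658.9 over all protein-coding genes with one. In genes of at least 50 kb, receptor gene bodies held a median of 29.5 peaks per Mb (37 genes) and all such genes 51.2 (6794 genes). The highest promoter peak was that of GRIK2, with 1420.3 ± 177 normalized counts in empty vector and 1444 ± 68.2 in HMGB2OE cells (log2 fold change 0.02). That peak lies 429346 bases into the gene, near an internal transcript start. The strongest promoter peaks of GRIA4 and GRIN2A lie 326434 and 61124 bases into their genes. The strongest promoter peak is thus not always at the first start of the gene. Of GRIA4, GRIA2, GRM8, GRIK4, GABRE and GRIN2A, which also had strong promoter peaks, none passed the threshold. Their log2 fold changes ran from -0.11 at GRM8 to 0.38 at GABRE, whose peak read 290.3 ± 57.2 and 379 ± 23.3 (adjusted p = 0.057). The promoters of GRM3 and GRM5 gave -0.18 ± 0.19 and -0.07 ± 0.19 (adjusted p = 0.63 and 0.89), and that of GRIN2A 0.03 ± 0.11 (adjusted p = 0.91). Over all promoter peaks of the receptor genes, 4 of 92 were called higher (4.35%, against 0.874% of all promoter peaks) and 3 lower (3.26%, against 0.697%). Their median log2 fold change was 0.118, where the 36734 promoter peaks of the study had -0.041. Intergenic receptor peaks had 11 of 157 called higher (7.01%, against 2.21% of all intergenic peaks) and 3 lower (1.91%, against 1.78%). All 7 higher calls of the chromosome 4 cluster are among these promoter and intergenic calls, in a region where peaks of other genes also ran higher. In gene bodies away from promoters 8 of 320 receptor peaks were higher (2.50%, against 2.17% of all such peaks) and 5 lower (1.56%, against 1.57%), shares close to those over all peaks.

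**Figure D4:**
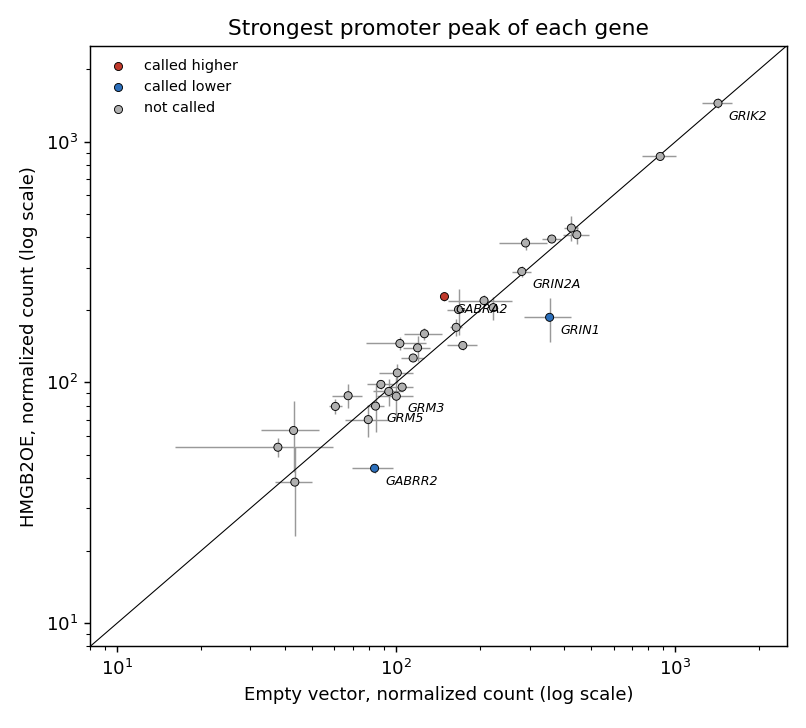
Strongest promoter peak of 31 receptor genes, with the mean normalized count in empty vector cells on the horizontal axis and in HMGB2OE cells on the vertical axis, both on log scales, and SD bars (n = 3 libraries). The called peaks are those of GABRA2, above the line of equal values, and of GRIN1 and GABRR2, below it. A promoter peak lies within 3 kb of any transcript start, internal ones included.

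When the counts of all peaks of a gene were summed and tested over 18347 genes, changes were small. None of the 44 receptor genes with peaks was called higher or lower at a fold of 1.5 by edgeR or by DESeq2, where 0.278% and 0.191% of all genes were called, and at an unadjusted p under 0.05 edgeR gave 17 higher (38.6%, against 13.9% of all genes) and 4 lower (9.09%, against 11.3%). By adjusted p alone 8 genes were higher, or 18.2% against 5.83% of all genes, and 1 was lower, or 2.27% against 3.45%. These 9 genes are named here after their values were seen. GABRG1 rose by 0.44 ± 0.06 on the log2 scale and GABRA2 by 0.37 ± 0.05 (adjusted p = 0.00022 and 0.00023). GRIN2A rose by 0.23 ± 0.04 (adjusted p = 0.0011). These 3 passed without each library in turn. Smaller or less steady rises were those of GRIK3 (0.36 ± 0.09), GABRP (0.28 ± 0.06), GRIA1 (0.27 ± 0.08), GRIN3A (0.21 ± 0.05) and GRIK4 (0.17 ± 0.04), with adjusted p-values of 0.0082 to 0.033. GRIN3A, which encodes an NMDA subunit of low calcium permeability, had no single peak called. GRM3 fell by 0.24 ± 0.07 (adjusted p = 0.032). Leaving out EV2 took each of these 6 genes past 0.05, with the highest adjusted p over the left-out libraries at 0.17 for GRIK3, 0.075 for GABRP, 0.16 for GRIA1, GRIK4 and GRM3, and 0.091 for GRIN3A. EV1 had the same effect on GRIA1, GRIK4 and GRM3, OE1 on GRIK3, GRIN3A, GRIK4 and GRM3, OE2 on GRM3, and OE3 on GRIA1, GRIK3 and GRIK4. With peaks given to the nearest start site GABRP went to 0.11 (adjusted p = 0.17) and GRIK4 to 0.12 (adjusted p = 0.080). The calls of GRIK4 and GRM3 were also lost with regional centring, and that of GRIA1 with GC offsets. Of the 44 genes 33 had a log2 fold change above 0, and the median was 0.102, against -0.0021 over all genes. Among the genes with most peaks, GRIK2 and GRM7 lay at -0.01 and -0.11 and GRID1 and GRM8 at 0.09 and 0.09, none past the threshold.

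**Figure D5:**
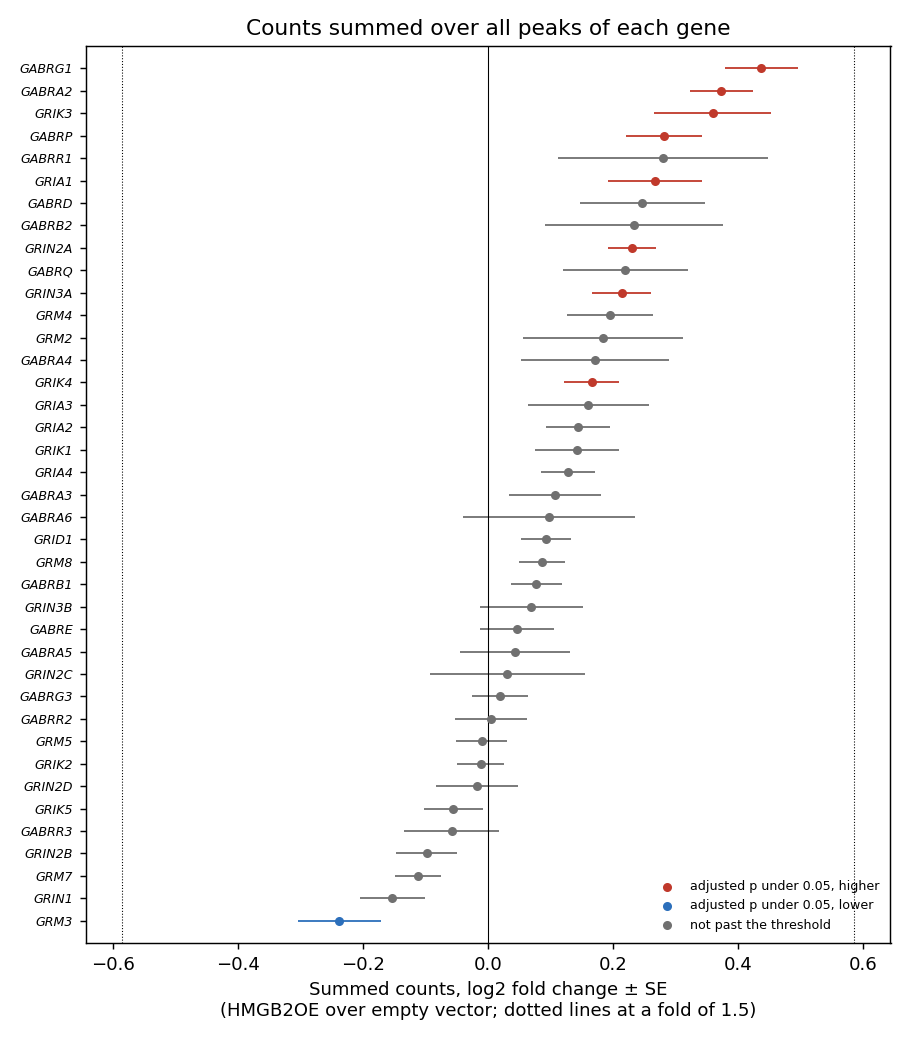
Log2 fold change of the counts summed over all peaks of each gene (horizontal axis, HMGB2OE over empty vector) with its SE, 1 row for each of 39 receptor genes, sorted. The points run from -0.24 for GRM3 to 0.44 for GABRG1, none reaches the dotted lines at a fold of 1.5, and 30 of the 39 lie right of 0.

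Sequence words were searched on both strands of every tested peak: TGACTCA of AP-1, ACAAAGG of SOX factors, the E-box CACGTG of MITF, and TTCAGCACC, the left part of the RE1 element through which REST keeps neuronal genes silent outside neurons. The AP-1 word was in 32.0% of the receptor peaks and 28.0% of all peaks, and in 10 of the 23 higher and 3 of the 11 lower receptor peaks; over the whole study it was in 35.9% of higher and 34.2% of lower peaks. The SOX word was in 10.5% of receptor peaks and 12.1% of all, and the E-box in 5.98% and 6.84%. Neither was in any higher receptor peak. The RE1 word was in 9 receptor peaks (1.58%, against 0.751% of all), none of them called. They included peaks of GABRA4, GABRD, GRIA2, GRIN1, GRM4 and GRM5. The log2 fold changes were 0.28 at GABRD, 0.10 at GRM4, 0.09 at GRIN1, -0.04 at GRIA2 and -0.07 at GRM5. GABRA4 had the lowest value of those named, and only the left part of the element was searched. The site in GABRA4, at chr4:46937764-46937793 on the plus strand, is shown with the word in capitals. Its peak read 46.7 normalized counts in empty vector and 33.1 in HMGB2OE cells (-0.45 ± 0.30, adjusted p = 0.42). It is shown as the lowest value of those named. The rest of the element was not searched, so the site is not given as an example of a full RE1 element.
GABRA4 site: TTCAGCACCtcttaacccaaatcaggggaa
In the RefSeq promoter windows, which matched 32 of the 45 genes, the RE1 word was in that of GRM2 and in 0.376% of all windows, and the AP-1 word in those of GABRA6, GABRR3 and GRM6 and in 4.95% of all. A match is a match of letters only, and nothing was measured of the factors.

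Proteins that work with the receptors were read from a list of 60 genes, with 700 tested peaks, of which 12 were called higher (1.71%, against 1.87% of all tested peaks) and 8 lower (1.14%, against 1.44%), so neither share was above that of all peaks. Their median was -0.013 on the log2 scale. Auxiliary subunits, which ride on AMPA and kainate channels and set their gating, had 2 higher (1.03%) and 6 lower (3.08%) of 195 peaks. The falls were led by SHISA9, an AMPA auxiliary subunit gene, with 4 lower peaks, of which 3 intergenic ones were among the 5 largest falls of the list. The peak starting at 12876768 went from 139 ± 19.9 to 61.8 ± 10.4 (-1.18 ± 0.18, adjusted p = 0.00014), and the one at 13307230 from 263 ± 11.04 to 136 ± 8.96 (-0.95 ± 0.13, adjusted p = 3.3e-05). The third, at 12874062, fell by 0.91 ± 0.16. NETO1, a kainate auxiliary subunit gene, and DLG1, a scaffold gene, had 2 lower peaks each, and the larger falls were alike (-0.93 ± 0.22 and -0.93 ± 0.18, adjusted p = 0.010 and 0.0014). The largest rises were at CNIH3, an AMPA auxiliary subunit gene (1.21 ± 0.30, adjusted p = 0.013), and GRIP1, a scaffold of AMPA receptors, from 89.5 ± 9.92 to 201 ± 21.8 (1.18 ± 0.15, adjusted p = 2e-05). The CNIH3 peak read 13.8 in EV2 against 77.8 and 46.8 in EV1 and EV3. DLGAP1, ABAT and SLC1A3 followed with 0.89 ± 0.23, 0.77 ± 0.23 and 0.73 ± 0.18 (adjusted p = 0.016, 0.041 and 0.013). Scaffold genes had 4 higher (1.24%) and 2 lower (0.619%) of 323 peaks. Transporters had 3 higher (2.88%) and none lower of 104, and the enzymes of glutamate and GABA metabolism 3 (5.88%) and none of 51. The GABA-B receptor genes had none called of 27.

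Which of the 34 calls in the receptor genes rest on single libraries was counted. Leaving out 1 library ended 11 to 16 of them, 13 without EV1, 16 without EV2, 11 without EV3, 12 without OE1, and 15 each without OE2 and OE3. The 10 peaks that stayed called each time were 3 of GABRG1, 2 each of GRIN2A and GRM7, and 1 each of GABRG3, GRID1 and GRIN1. Other tests kept 26 of the 34 (DESeq2), 25 (GC offsets), 26 (regional centring) and 30 (library sizes only). The groups did not overlap at 32 of the 34 called peaks (94.1%, against 98.2% of all called peaks), a count that the call itself largely fixes.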

How the data were processed

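ATAC-seq was done on 3 empty vector and 3 HMGB2OE libraries of A375 cells; groups and numbers came from the sample labels. By the study's methods and the submitters' processing notes, the authors trimmed reads (TrimGalore 0.6.7, Cutadapt 4.0), mapped them with Bowtie 2 on hg38, took out duplicates (Picard) and called peaks (MACS2, with public melanocyte data as control). Blacklisted regions were left out, nearby peaks joined into 1 atlas, and reads counted with featureCounts. The deposited values are these raw counts per peak and library, with no normalization. Whether read ends were shifted for the Tn5 cut, how multimapping reads were treated, and whether peaks were called per library are not given in the sources used here.

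Counts were tested with edgeR 4.0.16 in R 4.3.3 (filterByExpr, TMM factors, quasi-likelihood F test, 2-sided, Benjamini-Hochberg over all tested peaks or genes), with DESeq2 1.42.0 as an alternative. Standard errors are the log2 fold change divided by the root of F. The test was first run on simulated data. Other alternatives were other scaling, filters, GC offsets, windows of 10 Mb, the replicate number, the fold limit, gene assignment and leaving out each library; leaving out the chromosome 4 cluster was added after seeing the data. Libraries of the same group differed by more than counting noise. The rule for named items was the 12 largest rises and up to 12 falls among called receptor peaks, the 10 highest promoter peaks with those of chosen genes (GRM3, GRM5 and GRIN2A among them), the 5 genes with most peaks, genes called on summed counts, and the 5 largest rises and falls of the partner list; other called peaks were added. Values of 5 of the receptor genes are not reported here by gene and are not drawn, but their peaks stay in every count over the receptor genes. The receptor genes, partner list, markers and sequence words were chosen with earlier results of these data known. Sequences came from hg38 and RefSeq (GRCh38) tables.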

Additional observations from a re-analysis of the deposited data

How the results depend on the processing

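The count of 23 higher receptor peaks stayed within 1.5 times under other scaling, filters, DESeq2 (18), GC offsets (19), regional centring (18), the nearest start site (25) and without the chromosome 4 cluster (16), and became 35 at a 25% difference and 35 with no fold limit. Leaving out each library gave 15 to 25 (15 without EV2 and 15 without OE3). The 11 lower peaks became 7 with library sizes only, 7 with GC offsets, 18 at a 25% difference and 19 with no limit, and 6 to 8 without each library (6 without EV1, EV2 or OE1). The median log2 fold change of 0.083 was 0.105 with library sizes only, 0.058 with GC offsets, 0.061 with GC offsets and the replicate block, 0.093 by nearest start site, 0.059 without the chromosome 4 cluster and 0.069 to 0.087 without each library. Genes called on summed counts, 0 each way, became 3 higher at a 25% difference, 8 higher and 1 lower with no limit, and stayed 0 without each library. The cause of these shifts was not tested.

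Deviations from the group mean were only weakly correlated between same-numbered libraries (r = -0.089, 0.185 and 0.125). Between other pairs r ran from -0.27 to 0.15, and the main test took the replicate numbers as names. With the replicate block there were 24 higher and 11 lower receptor peaks, a median of 0.084 and 0 genes. Over all peaks the block changed the calls from 2800 higher and 2166 lower to 3192 and 2383. For single peaks and genes named, 660 of 792 alternatives kept the direction and the call, 117 lost the call, 4 gained it and 11 reversed the sign. With GC offsets the promoter peaks of GRIK2 and GRIA2 turned to -0.053 and -0.037, and with the replicate block added to -0.044 and -0.036. Summed counts of GRIK2 turned to 0.029 with regional centring. Without each library the ranges that crossed 0 were -0.074 to 0.080 for the promoter peak of GRIK2, -0.116 to 0.081 for GRIA4, -0.018 to 0.140 for GRIA2 and -0.188 to 0.091 for GRM5, and for summed counts -0.030 to 0.011 for GRIK2. Depth limits the largest rise: the GABRG1 peak had 6.88 to 23.4 normalized counts in the empty vector libraries, and it was not tested when at least 10 counts were asked of every library.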
